A study of Mus musculus with 28 samples.

Results

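A Sox9-GFP-negative keratinocyte population, labelled HF-ORS, was compared with the sorted cells of the surface epidermis, labelled Epi, in mouse back skin at postnatal day 5. HF-ORS cells were bright for K14-RFP and for ITGA6 and negative for Sox9-GFP, and their label calls them the rest of the ORS, the outer root sheath that surrounds the growing hair. Epi cells were K14-H2BGFP-positive cells of an epidermal preparation, from K14-H2BGFP mice that also carried Lef1-RFP. Each population had 2 libraries, so 4 of the 28 libraries of the series were chosen by their labels. Of 23015 genes, 11653 had at least 1 FPKM (fragments per kilobase of transcript, a level scaled for transcript length and library size) in at least 2 of these 4 libraries and were tested.

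A pair of further populations served as reference points. ORS cells were the brightest K14-H2BGFP cells of a dermal preparation of the same line as Epi, with Lef1-RFP. HF-SC cells, labelled as precursors of bulge stem cells, passed the same K14-RFP and ITGA6 gates as HF-ORS but were Sox9-GFP positive. All 4 populations came from mice of the same age on a mixed FVB/N, C57BI/6J and CD1 background, and the labels name no treatment. The K14 promoter drives both keratinocyte reporters, and it is active in basal epidermis as well as in the outer root sheath. The HF-ORS label names neither an epidermal nor a dermal preparation. HF-ORS and Epi came from different mouse lines, so population and line cannot be told apart in their comparison. HF-SC is the population here that shares the HF-ORS line. The labels do not say whether a replicate is a separate animal, so the p-values measure the spread between libraries, which may be technical.

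In hair follicles the outer root sheath is continuous with the basal layer of the epidermis and shares its keratins K5 and K14. SOX9 is a transcription factor of the outer root sheath and of the bulge stem cells, whereas the epidermis makes KRT1 and KRT10 as its cells leave the basal layer. Skin also holds leukocytes, among them Langerhans cells and T cells within the epithelium and macrophages and mast cells in the dermis, and PTPRC (CD45) is the surface protein they share.

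Over the 8 libraries of the 4 populations, 11049 to 11621 genes reached 1 FPKM, and the upper quartile of the values above 0 lay between 18.8 and 21.8 FPKM. FPKM keeps no read depth, so no counting interval can be given. On the log2(FPKM + 1) scale the Pearson correlation across genes, which are not independent replicates, was 0.903 between the HF-ORS libraries and 0.940 between the Epi libraries. Between HF-ORS and Epi libraries it was 0.834 to 0.884, between HF-ORS and HF-SC 0.834 to 0.885, and between HF-ORS and ORS 0.776 to 0.811. Over all genes tested HF-ORS was thus about as near to HF-SC as to Epi. Xist, the RNA of the inactive X chromosome, stood at 559.7 and 0.624 FPKM in HF-ORS replicates 1 and 2 and at 472 and 0.971 FPKM in HF-SC replicates 1 and 2. The Y-linked gene Ddx3y stood at 0 and 19.2 FPKM and 0.0176 and 25.3 FPKM in the same libraries. The HF-ORS libraries thus differed in sex makeup in the same order as the HF-SC libraries, and its part in the results was not tested.

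The marker genes went against the outer root sheath label. Krt1, the keratin of the spinous layer (GRCm38.p6 chromosome 15, 101845426 to 101850786), was read at 1481 and 1024 FPKM in HF-ORS and 3434 and 2643 FPKM in Epi, against 7.96 and 0.548 FPKM in ORS and 238 and 203 FPKM in HF-SC. Both HF-ORS libraries lay below both Epi libraries and above every ORS and HF-SC library. The HF-ORS minus Epi difference of Krt1 was -1.29 ± 0.52 log2 units (difference ± SE, adjusted p = 0.176), and the HF-ORS minus ORS difference was 8.37 ± 0.52 (adjusted p = 1.06e-09). Its partner Krt10 stood at 1384 and 767 FPKM in HF-ORS, 3811 and 2571 FPKM in Epi, 7.67 and 4.09 FPKM in ORS and 239 and 166 FPKM in HF-SC. Krt10 fell by 1.60 ± 0.43 against Epi (adjusted p = 0.0278), and the call was lost at adjusted p of 0.197 without HF-ORS replicate 2, 0.271 without Epi replicate 1 and 0.0639 without Epi replicate 2 (over all alternatives 0.00118 to 0.271).

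H19, an imprinted growth-restraining RNA of fetal and neonatal tissue (chromosome 7, 142575530 to 142578146), differed least from Epi of the marker genes tested. Its level was 2245 and 1471 FPKM in HF-ORS and 2289.8 and 1604 FPKM in Epi, with overlapping groups, but 52.8 and 48.3 FPKM in ORS and 119.5 and 95.2 FPKM in HF-SC. The H19 difference was -0.08 ± 0.51 against Epi (adjusted p = 0.965), 5.14 ± 0.51 against ORS (adjusted p = 4.79e-07) and 4.08 ± 0.51 against HF-SC (adjusted p = 4.82e-05). Its imprinted neighbour Igf2, a growth factor, was read at 182 and 171 FPKM in HF-ORS, 228 and 187 FPKM in Epi, 2.53 and 4.8 FPKM in ORS and 11.3 and 12.4 FPKM in HF-SC.

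Sox9 (chromosome 11, 112782210 to 112787757), the gene behind the negative gate, was read at 20.9 and 28.8 FPKM in HF-ORS and 9.06 and 10.8 FPKM in Epi. It reached 60.4 and 101 FPKM in ORS and 182 and 162 FPKM in HF-SC, so that both HF-ORS libraries lay above Epi and below every ORS and HF-SC library. The Sox9 difference from Epi, 1.23 ± 0.38, missed the threshold (adjusted p = 0.0609), and its difference from ORS was -1.63 ± 0.38 (adjusted p = 0.00471). The call against ORS was lost at adjusted p of 0.0638 without HF-ORS replicate 1 and 0.0993 without ORS replicate 2 (over all alternatives 0.000331 to 0.0993). HF-ORS and HF-SC were gated apart on Sox9-GFP, so their Sox9 difference of -2.76 ± 0.38 checks the gate and is no finding. ORS was not gated on Sox9-GFP, so the Sox9 difference of the negative HF-ORS sort from ORS also reflects the gate and is no finding. The gate genes Krt14 and Itga6 were high in both keratinocyte sorts. Krt14 stood at 3882 and 2941 FPKM in HF-ORS, 6264 and 4486 FPKM in Epi and 484 and 442 FPKM in ORS. Itga6, the integrin of hemidesmosomes, stood at 252 and 222 FPKM in HF-ORS and 209.5 and 209 FPKM in Epi. Lef1, a Wnt effector whose reporter the Epi line carries, overlapped between them at 13 and 6.68 FPKM and 8.08 and 4.51 FPKM.

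**Figure D1:**
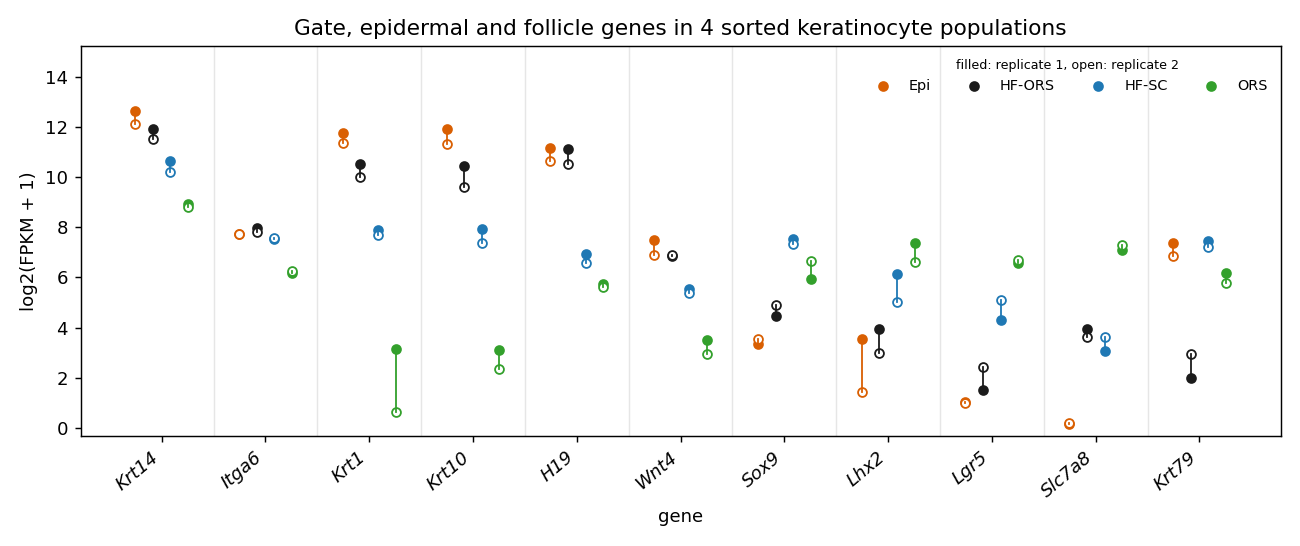
Levels of gate, epidermal and follicle genes on the log2(FPKM + 1) scale (y axis) in the 2 libraries of each of 4 populations (filled points replicate 1, open points replicate 2, joined by a line). The HF-ORS points of Krt1 and H19 sit near the Epi points and far above ORS, while those of Lhx2, Lgr5 and Sox9 sit below ORS and HF-SC.

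A gene was called where its adjusted p (limma, Benjamini-Hochberg over all genes tested) was under 0.05 and its difference at least 1 log2 unit. Against Epi, 452 genes were called higher (3.88% of those tested) and 213 lower (1.83%) in HF-ORS. These shares are the background for the list counts against Epi below. Against ORS, 1083 were called higher (9.29%) and 717 lower (6.15%), and against HF-SC 273 higher (2.34%) and 271 lower (2.33%). The median over all genes tested was -0.04, -0.03 and 0.09 log2 units in these 3 comparisons, which share the HF-ORS libraries. Without Epi replicate 1, 249 genes were called higher and 66 lower than in Epi, and without HF-ORS replicate 1 the counts were 283 and 77. With Epi replicate 2 left out the counts were 264 and 89. Of the 452 higher genes 188 were under 1 FPKM in both Epi libraries and could be tested only through their level in HF-ORS, so that counts of higher list members that hold such genes are descriptions. Genes that were low in both HF-ORS and Epi were not tested, so the counts against ORS and HF-SC leave out genes high in those populations alone.

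**Figure D2:**
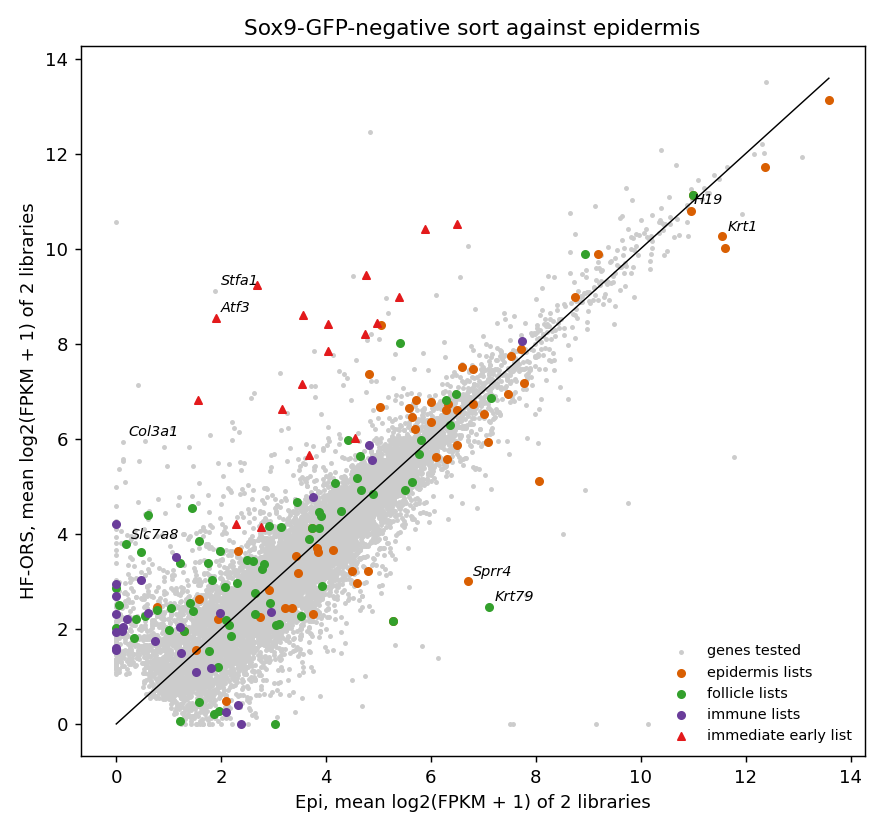
Mean log2(FPKM + 1) of the 2 Epi libraries (x axis) and of the 2 HF-ORS libraries (y axis) for the 11653 genes tested, with list members in colour and the line of equality. The immediate early genes lie above the line, Krt79 and Sprr4 below it, and H19 on it.

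The genes with the largest gains over Epi were a protease inhibitor, an interferon-inducible gene, stress genes and fibrillar collagens. Stfa1 (chromosome 16, 36277148 to 36285371), which encodes the cysteine protease inhibitor stefin A1, was read at 348 and 880.3 FPKM in HF-ORS and 1.51 and 4.44 FPKM in Epi. Its difference of 7.23 ± 0.45 was the largest of the named genes (adjusted p = 4.42e-09), and HF-SC held 76.1 and 104 FPKM against 0 in both ORS libraries. Stfa1 has near-identical neighbouring copies, so its share of their reads is uncertain, which also holds for Ifi202b. Ifi202b, an interferon-inducible member of the p200 family, stood at 98.2 and 199.5 FPKM in HF-ORS, 0.374 and 0.286 FPKM in Epi and 81.5 and 137 FPKM in HF-SC (6.73 ± 0.33 against Epi, adjusted p = 1.17e-10). The collagens Col3a1, Col1a1 and Col1a2, the fibrils of dermal matrix, and the microfibril protein gene Mfap4 rose by 5.82, 5.44, 5.42 and 5.31. Fosl1, which encodes the AP-1 subunit FRA1, rose by 5.39 ± 0.43 from 0 and 0.202 FPKM in Epi to 57.2 and 35.5 FPKM. In all 10 of the most increased genes both HF-ORS libraries lay above both Epi libraries, which their choice by size of difference made likely. Over all 11653 genes tested the groups did not overlap, in either direction, for 5403. Each of the 10 genes was called under every alternative in which it was tested.

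The most decreased genes were led by upper follicle and terminal differentiation genes. Krt79 (chromosome 15, 101929332 to 101940324), a keratin of the follicle funnel that opens to the skin surface, was read at 2.99 and 6.69 FPKM in HF-ORS, 163 and 115 FPKM in Epi, 70.3 and 53.4 FPKM in ORS and 176 and 149 FPKM in HF-SC. Both HF-ORS libraries lay below all 6 libraries of the other populations. The Krt79 difference was -4.64 ± 0.999 against Epi (adjusted p = 0.00639), -3.49 ± 0.999 against ORS (adjusted p = 0.0193) and -4.88 ± 0.999 against HF-SC (adjusted p = 0.00602). The call against Epi was lost at adjusted p of 0.088 without HF-ORS replicate 1 and 0.0726 without Epi replicate 1 (over all alternatives 5.04e-05 to 0.088). Chit1, a chitinase gene, fell by 4.32 ± 0.28 from 33.7 and 18.2 FPKM in Epi to 0.146 and 0.463 FPKM in HF-ORS (adjusted p = 7.84e-09), a call that held under every alternative in which it was tested. The cornified envelope gene Sprr4 stood at 5.14 and 9.38 FPKM in HF-ORS, 153 and 69.4 FPKM in Epi, 0 in both ORS libraries and 99.5 and 178 FPKM in HF-SC. Sprr4 fell by 3.70 ± 0.89 against Epi (adjusted p = 0.0144), with the call lost at adjusted p of 0.142 without HF-ORS replicate 1 and 0.168 without Epi replicate 1 (over all alternatives 9.64e-05 to 0.258). Of the 7 others, Commd5, which fell by 2.68, kept its call whichever library was left out, while Rpp25l, Klk7, Defb6, Fam89a, Krt77 and Trappc6a lost theirs without at least 1 library. The adjusted p of these 6 rose to 0.43 without HF-ORS replicate 1, 0.127 without Epi replicate 1 and 0.125 without Epi replicate 2 (over all alternatives 0.000727 to 0.43) for Rpp25l, 0.21 without HF-ORS replicate 1, 0.0534 without Epi replicate 1 and 0.0954 without Epi replicate 2 (over all alternatives 0.000131 to 0.21) for Klk7 and 0.122 without Epi replicate 1 (over all alternatives 0.00443 to 0.122) for Defb6. For Fam89a it rose to 0.0935 without HF-ORS replicate 1 and 0.104 without Epi replicate 1 (over all alternatives 0.00107 to 0.104), for Krt77 to 0.0742 without Epi replicate 1 (over all alternatives 4.45e-06 to 0.294) and for Trappc6a to 0.336 without HF-ORS replicate 1, 0.252 without Epi replicate 1 and 0.0685 without Epi replicate 2 (over all alternatives 0.00282 to 0.336).

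Of 72 follicle genes tested over 5 lists, 14 were higher and 5 lower in HF-ORS than in Epi, beside 3.88% and 1.83% over all genes tested. The 14 came to 6 without HF-ORS replicate 1, 8 without Epi replicate 1 and 9 without Epi replicate 2, and the 5 came to 2 without HF-ORS replicate 1 and 1 without Epi replicate 1. Of 37 outer root sheath and bulge genes 28 were tested, and 4 (Slc7a8, Fstl1, Id2 and Myl9) were higher than in Epi, none was lower and the median was 0.54. Against ORS, 3 of the 28 were higher and 16 lower with a median of -1.63. HF-ORS was gated as Sox9-GFP negative, so a Sox9 call against ORS or HF-SC only checks the gate. Against HF-SC none was higher and 9 were lower, a count that came to 5 without HF-ORS replicate 1. Without HF-ORS replicate 1, ORS replicate 1 or ORS replicate 2, 1 member was called higher than in ORS.

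Among genes of bulge identity, Lhx2, a stem cell transcription factor, stood at 14.2 and 6.86 FPKM in HF-ORS and 10.7 and 1.67 FPKM in Epi with overlapping groups, against 164 and 98.1 FPKM in ORS and 68.9 and 31.3 FPKM in HF-SC. Lgr5, the R-spondin receptor of follicle stem cells, was read at 1.88 and 4.44 FPKM in HF-ORS, 1.03 and 1.01 FPKM in Epi, 93.9 and 102 FPKM in ORS and 18.8 and 33.1 FPKM in HF-SC. Its HF-ORS minus ORS difference was -4.64 ± 0.52 (adjusted p = 2.39e-06), and its difference from Epi was 0.97 ± 0.52 (adjusted p = 0.35). The keratin gene Krt15, often used as a bulge marker, did not separate the sorts, at 2842 and 1771 FPKM in HF-ORS and 1966 and 2115 FPKM in Epi. Cd34, the surface marker of adult bulge cells, reached 1 FPKM in 1 of these 4 libraries and was not tested.

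Of the 4 sheath genes called higher than in Epi, Slc7a8, Fstl1 and Myl9 lay below their ORS levels. Their place above Epi was fixed by the choice of called genes. Slc7a8 (chromosome 14, 54722215 to 54781886), a transporter of neutral amino acids, was read at 14.4 and 11.2 FPKM in HF-ORS, 0.106 and 0.158 FPKM in Epi, 135 and 155 FPKM in ORS and 7.46 and 11.3 FPKM in HF-SC. It rose by 3.60 ± 0.45 against Epi (adjusted p = 2.28e-05) and fell by 3.41 ± 0.45 against ORS (adjusted p = 1.73e-05). Fstl1, a secreted modulator of BMP signals, stood at 21.6 and 18.6 FPKM in HF-ORS, 0.408 and 0.622 FPKM in Epi, 101 and 143 FPKM in ORS and 51.7 and 38.8 FPKM in HF-SC (3.80 ± 0.35 against Epi, adjusted p = 3.81e-07). Myl9, a myosin light chain of contractile cells, rose by 3.15 ± 0.53 from 0.127 and 0.694 FPKM in Epi to 16 and 7.84 FPKM, below its 81 and 105 FPKM in ORS. These 3 calls held under every alternative. Id2, a target of BMP signals, went from 0 and 1.14 FPKM in Epi to 4.18 and 3.49 FPKM in HF-ORS (1.72 ± 0.45, adjusted p = 0.0241), and lost its call at adjusted p of 0.168 without HF-ORS replicate 1, 0.0635 without HF-ORS replicate 2 and 0.33 without Epi replicate 1 (over all alternatives 0.00549 to 0.36).

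Keratins of the inner root sheath, the moulding tube around the hair, were present at low levels. Of 20 genes of the inner root sheath and companion layer 13 were tested, and Krt25, Krt27, Krt28, Krt75 and Tchh were higher than in Epi, while Krt6b and Krt79 were lower. All genes tested gave 3.88% higher and 1.83% lower calls. Krt25 was read at 27.2 and 18.3 FPKM in HF-ORS, 2.83 and 0.944 FPKM in Epi, 97.7 and 68.8 FPKM in ORS and 47.1 and 35.7 FPKM in HF-SC, a rise of 3.09 ± 0.44 over Epi that held under every alternative (adjusted p = 0.000117). Krt75, the companion layer keratin, was at 0 in both Epi libraries and at 10.5 and 3.63 FPKM in HF-ORS. Its adjusted p of 0.00377 became 0.0988 without HF-ORS replicate 1 (over all alternatives 6.86e-06 to 0.111). Against ORS, 1 of the 13 was higher and 6 lower, and against HF-SC none was higher and 5 were lower. The 6 came to 3 without HF-ORS replicate 2 and 2 without ORS replicate 1, and the 5 against HF-SC came to 0 without HF-ORS replicate 1, 2 without HF-SC replicate 1 and 1 without HF-SC replicate 2. The 2 lower calls against Epi came to 0 without HF-ORS replicate 1 or Epi replicate 1. The 5 higher calls against Epi came to 1 without HF-ORS replicate 1, 2 without Epi replicate 1 and 3 without Epi replicate 2. Krt28 stood at 6.04 and 3.62 FPKM in HF-ORS and 0.0855 and 0 FPKM in Epi, and its call was lost at adjusted p of 0.177 without HF-ORS replicate 1, 0.0978 without Epi replicate 1 and 0.101 without Epi replicate 2 (over all alternatives 0.000118 to 0.251).

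Matrix progenitor genes, those of the dividing cells at the follicle base, gave 3 higher calls of 18 tested (24 listed) and no lower one. The shares over all genes tested were 3.88% and 1.83%. Bmp2, a BMP ligand, was read at 75.7 and 51.3 FPKM in HF-ORS, 19.9 and 20.7 FPKM in Epi, 1.1 and 1.26 FPKM in ORS and 41.6 and 27.6 FPKM in HF-SC. The Bmp2 rise over Epi of 1.57 ± 0.39 (adjusted p = 0.017) lost its call at adjusted p of 0.205 without HF-ORS replicate 1, 0.117 without Epi replicate 1 and 0.0874 without Epi replicate 2 (over all alternatives 0.00364 to 0.205). Hoxc13, a hair differentiation factor, stood at 4.31 and 3.02 FPKM in HF-ORS, 0.141 and 0.476 FPKM in Epi and 38 and 48.5 FPKM in ORS, and its adjusted p of 0.00926 became 0.107 without HF-ORS replicate 1 and 0.109 without Epi replicate 1 (over all alternatives 0.000263 to 0.266). Foxq1, which acts in hair differentiation, stood at 22 and 7.94 FPKM in HF-ORS and 3.28 and 1.11 FPKM in Epi, and its adjusted p of 0.00988 became 0.205 without HF-ORS replicate 1 and 0.15 without Epi replicate 2 (over all alternatives 0.00137 to 0.205). The 3 matrix calls came to 0 without HF-ORS replicate 1 and to 1 without either Epi library. The 4 hair shaft genes tested of 20 listed gave no call in limma, with 1 at an unadjusted p under 0.05.

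Upper follicle and sebaceous gland genes were called in both directions. Of 20 listed 13 were tested, with 4 lower than in Epi (Krt79, Defb6, Cst6 and Klk7), 2 higher (1600029D21Rik and Prdm1) and 7 not called. Against HF-SC 6 were lower and none higher, and the 6 came to 3 without HF-ORS replicate 1. 1600029D21Rik, a synonym of Plet1, a surface protein of the upper follicle, stood at 183 and 364 FPKM in HF-ORS, 39 and 44.6 FPKM in Epi, 28.3 and 31.1 FPKM in ORS and 272 and 368 FPKM in HF-SC. It rose by 2.60 ± 0.46 over Epi (adjusted p = 0.00111) under every alternative. Prdm1, a repressor found in sebaceous and differentiating cells, stood at 3.36 and 5.72 FPKM in HF-ORS and 1.12 and 0.979 FPKM in Epi, and its adjusted p of 0.0105 became 0.101 without HF-ORS replicate 2, 0.0627 without Epi replicate 1 and 0.0781 without Epi replicate 2 (over all alternatives 0.00101 to 0.206). Without Epi replicate 1, 1 of the list was called lower and 1 higher, and without HF-ORS replicate 1, 2 were called lower. Without HF-ORS replicate 2 or Epi replicate 2, 1 member was called higher.

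All 18 basal keratinocyte genes were tested, and only Thbs1 was called, higher than in Epi. Thbs1, the matrix protein thrombospondin 1, was read at 394 and 285 FPKM in HF-ORS, 28.1 and 37 FPKM in Epi, 28.9 and 44 FPKM in ORS and 294 and 244 FPKM in HF-SC. Against ORS, 12 of the 18 were higher and none lower, a count that came to 6 without HF-ORS replicate 1 and 7 without ORS replicate 2. Their summed level was 20977 and 15169 FPKM in HF-ORS, 26200.0 and 18123 FPKM in Epi, and 4770.2 and 4831 FPKM in ORS.

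Suprabasal and barrier genes gave lower calls against Epi and mostly higher ones against ORS. Of 17 suprabasal genes tested (20 listed) none was higher and 3 (Krt10, Krt77 and Dsc1) were lower than in Epi, with a median of -0.59 and a summed level of 5032 and 4923 FPKM in HF-ORS and 10402 and 8693 FPKM in Epi, while 10 were higher and 1 lower than in ORS. The 3 lower calls came to 0 without Epi replicate 1, and to 1 without HF-ORS replicate 2 or Epi replicate 2. Against ORS the count of 10 came to 6 without ORS replicate 2. Krt77, a keratin of upper epidermal layers, stood at 35.7 and 31.3 FPKM in HF-ORS, 324 and 217 FPKM in Epi, 7.14 and 3.18 FPKM in ORS and 224 and 98.8 FPKM in HF-SC. Krtdap, a secreted protein of differentiating keratinocytes, overlapped between HF-ORS (1388 and 2269 FPKM) and Epi (1817 and 2173 FPKM) and stood at 35.6 and 22.1 FPKM in ORS (5.93 ± 0.73 against ORS, adjusted p = 6.99e-06). Of 21 cornified layer and barrier genes tested (36 listed), Sprr4, Klk7 and Abca12 were lower than in Epi and none was higher. Against ORS, 11 of the 21 were higher and 1 was lower. The barrier list had a median of -0.23 against Epi. Its summed level overlapped between them, at 540 and 564 FPKM in HF-ORS and 566 and 532 FPKM in Epi. The barrier lipid transporter gene Abca12 stood at 2.56 and 5.88 FPKM in HF-ORS and 12.5 and 12.5 FPKM in Epi, and its adjusted p of 0.0189 became 0.291 without HF-ORS replicate 1, 0.114 without Epi replicate 1 and 0.0939 without Epi replicate 2 (over all alternatives 0.00137 to 0.291). The 3 barrier calls came to 0 without HF-ORS replicate 1 or Epi replicate 1, and to 1 without Epi replicate 2. The 11 came to 5 without HF-ORS replicate 1, 7 without ORS replicate 1 and 4 without ORS replicate 2.

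**Figure D3:**
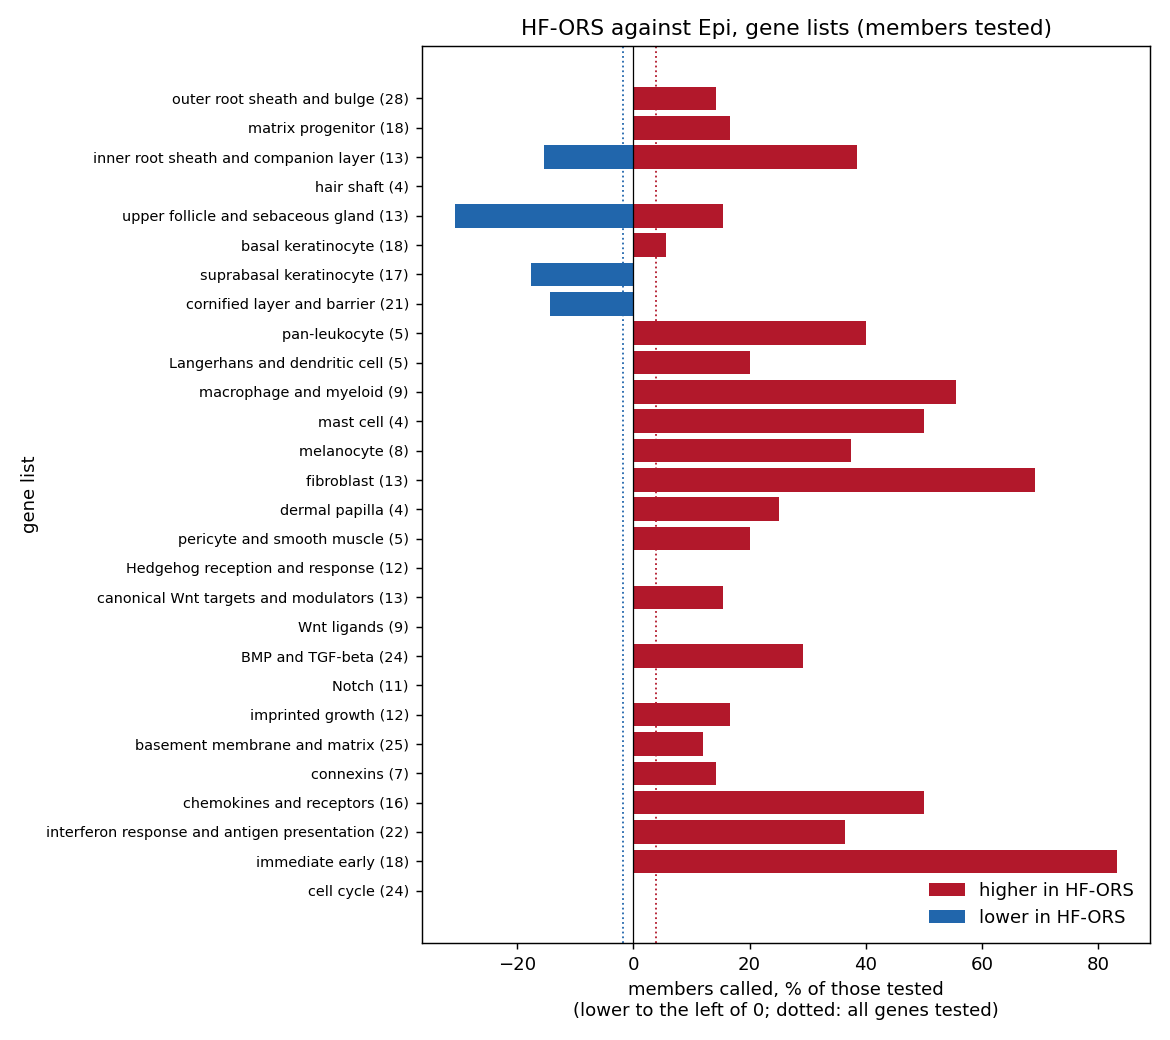
Share of tested members of the gene lists reported here with at least 4 tested members (number tested in brackets) that were called higher (red, right of 0) or lower (blue, left of 0) in HF-ORS than in Epi, in percent, with dotted lines at the shares over all genes tested, 3.88% and 1.83%. Immediate early, fibroblast and macrophage lists reach furthest right, and the upper follicle list furthest left.

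Ptprc, the leukocyte antigen (chromosome 1, 138062859 to 138175756), was at 0.0587 and 0.0229 FPKM in HF-ORS and 0 in both Epi libraries, below the level tested. Cd207, which encodes langerin of Langerhans cells, and the T cell receptor chain gene Cd3g were at 0 in all 8 libraries. Cd3e of the same complex was read at 0.651 and 1.7 FPKM in HF-ORS and 5.07 and 2.27 FPKM in HF-SC, with Cd3d at 0 in both HF-ORS libraries. These 5 defining genes were thus at 0 or at no more than 1.7 FPKM in HF-ORS. In sorted bulk RNA, fewer cells of a type and less RNA per cell cannot be told apart.

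Of 124 leukocyte genes over 6 lists 27 were tested, 10 of them higher and 1 lower than in Epi. The shares over all genes tested were 3.88% and 1.83%. Of the genes tested, 5 of 9 macrophage and 4 of 4 mast cell genes were under 1 FPKM in both Epi libraries. So were 2 of 5 pan-leukocyte and 1 of 5 Langerhans and dendritic cell genes. Such genes could be tested only through their level in HF-ORS, so the counts here are descriptions. Macrophage genes gave 5 of the 10 (Mrc1, Lyz2, C1qb, C1qc and Pf4), of 9 tested and 31 listed. Pf4, a platelet and macrophage chemokine, was read at 26.1 and 11.4 FPKM in HF-ORS, 0 in both Epi and both ORS libraries, and 0 and 19.5 FPKM in HF-SC. The complement gene C1qc stood at 15.5 and 1.51 FPKM in HF-ORS, while C1qa of the same complex was at 0 in both HF-ORS libraries. Lysozyme, Lyz2, stood at 5.33 and 8.36 FPKM in HF-ORS and 0 in both Epi libraries, and its adjusted p of 0.0144 became 0.0522 without HF-ORS replicate 1, 0.0827 without HF-ORS replicate 2, 0.0953 without Epi replicate 1 and 0.0824 without Epi replicate 2 (over all alternatives 0.00927 to 0.0953). The mannose receptor gene Mrc1 stood at 1.44 and 5.88 FPKM in HF-ORS and 0.209 and 0 FPKM in Epi, and its adjusted p of 0.00306 became 0.0522 without HF-ORS replicate 2 (over all alternatives 8.09e-05 to 0.18). The summed level of the macrophage list was 71.3 and 44 FPKM in HF-ORS and 14.9 and 20.9 FPKM in Epi, and the count of 5 came to 3 whichever of the 4 libraries was left out.

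Several leukocyte genes differed widely in level between the 2 HF-ORS libraries. Laptm5, a lysosomal protein of blood cells, stood at 8.11 and 1.38 FPKM in HF-ORS replicates 1 and 2 and at 0.244 and 0.069 FPKM in Epi, and its adjusted p of 0.0114 became 0.276 without HF-ORS replicate 1, 0.0605 without Epi replicate 1 and 0.0874 without Epi replicate 2 (over all alternatives 0.000198 to 0.276). Sfpi1, a synonym of Spi1 and a myeloid transcription factor, was at 9.79 and 0.516 FPKM and was not tested. Fcer1g, the shared signalling chain of Fc receptors, leaned the other way at 3.29 and 14.3 FPKM in HF-ORS replicates 1 and 2, 0.443 and 0.34 FPKM in Epi and 0 in both ORS libraries (2.54 ± 0.39 against Epi, adjusted p = 0.000251). The mast cell protease genes Cpa3 and Cma1 were at 0 in both Epi and both ORS libraries. Cpa3 stood at 1.22 and 10.3 FPKM in HF-ORS and its adjusted p of 0.0155 became 0.212 without HF-ORS replicate 2, 0.0987 without Epi replicate 1 and 0.0858 without Epi replicate 2 (over all alternatives 0.000411 to 0.212). Cma1 stood at 1.1 and 6.03 FPKM and its adjusted p of 0.00909 became 0.13 without HF-ORS replicate 2, 0.067 without Epi replicate 1 and 0.0595 without Epi replicate 2 (over all alternatives 0.000285 to 0.197). For antigen presentation on class II molecules, Cd74 stood at 6.25 and 16.9 FPKM in HF-ORS, 0.416 and 2.43 FPKM in Epi and 21.2 and 14.9 FPKM in HF-SC, and its adjusted p of 0.041 became 0.235 without HF-ORS replicate 2, 0.371 without Epi replicate 1 and 0.0501 without Epi replicate 2 (over all alternatives 0.00873 to 0.371). Its partner H2-Aa stood at 1.2 and 10.7 FPKM in HF-ORS and 0.223 and 0.882 FPKM in Epi and was not called (adjusted p = 0.0751). Of 3 T cell genes tested none was called by limma, with 0 at an unadjusted p under 0.05. Their median HF-ORS minus Epi difference was 1.02 log2 units. The summed level of the T cell list was 96.2 and 84.8 FPKM in HF-ORS and 54.7 and 41.7 FPKM in Epi. The B cell adaptor gene Blnk was the 1 lower gene, at 0 and 0.736 FPKM in HF-ORS and 5.37 and 2.96 FPKM in Epi, and its adjusted p of 0.0405 became 0.326 without HF-ORS replicate 1, 0.303 without Epi replicate 1 and 0.0781 without Epi replicate 2 (over all alternatives 0.0099 to 0.326).

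**Figure D4:**
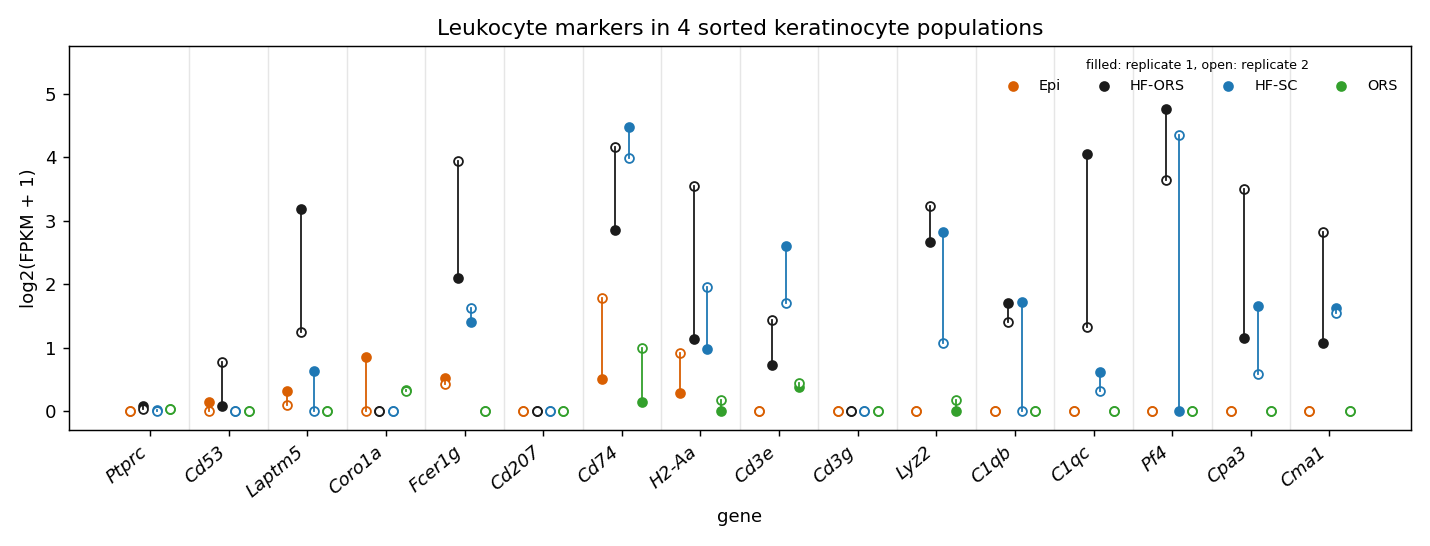
Levels of leukocyte genes on the log2(FPKM + 1) scale (y axis) in the 2 libraries of each of 4 populations (filled points replicate 1, open points replicate 2, joined by a line). Ptprc, Cd207 and Cd3g lie at or near 0 in HF-ORS, while Laptm5, C1qc, Fcer1g and Cpa3 are spread widely between its 2 libraries.

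Among genes of other skin cells, calls against Epi were most frequent in the fibroblast list. Of 13 fibroblast genes tested (16 listed), 9 were higher and none lower than in Epi, 8 were higher than in ORS, and none was called in either direction against HF-SC. Of the 13, 9 were under 1 FPKM in both Epi libraries, so this count is a description. All genes tested gave 3.88% higher and 1.83% lower calls against Epi. The summed level of the 16 was 889 and 1174 FPKM in HF-ORS, 479 and 356 FPKM in Epi, 164 and 131 FPKM in ORS and 601 and 811 FPKM in HF-SC, and none of the 16 was at 0 in both HF-ORS libraries. The 9 genes under 1 FPKM in both Epi libraries add little to the Epi sum, which rests on other members. Such sums follow the most abundant members of a list and are no amount of fibroblast or papilla RNA. Col1a1 was read at 40.3 and 53.7 FPKM in HF-ORS, 0.162 and 0.0336 FPKM in Epi and 75.8 and 81 FPKM in HF-SC. The intermediate filament gene Vim stood at 19.1 and 37.7 FPKM in HF-ORS, 1.5 and 1.95 FPKM in Epi and 48 and 61 FPKM in HF-SC. Of 8 melanocyte genes tested, 6 of them under 1 FPKM in both Epi libraries, 3 were higher, among them the pigment enzyme gene Dct at 12.4 and 13.2 FPKM in HF-ORS, 0.181 and 0 FPKM in Epi and 17.9 and 21.4 FPKM in HF-SC. Dct lost its call at adjusted p of 0.0542 without Epi replicate 2 (over all alternatives 7.76e-05 to 0.145), and without Epi replicate 2 the melanocyte count came to 1. The summed melanocyte level was 58.3 and 78.7 FPKM in HF-ORS and 6.44 and 6.67 FPKM in Epi. The dermal papilla list, of the signalling cells under the follicle, went the other way in summed level. The sum was 37.1 and 76.3 FPKM in HF-ORS, 127 and 138 FPKM in Epi and 399.8 and 575 FPKM in HF-SC. This list had a median HF-ORS minus Epi difference of 0.98 log2 units over its tested genes, opposite in direction to its sum. Of its 4 tested genes 1, Prdm1, was higher than in Epi, and 3 were lower than in HF-SC, a count that came to 1 without HF-ORS replicate 1 or HF-SC replicate 2. Of 5 pericyte and smooth muscle genes tested 1, Acta2, and of 2 erythroid genes tested 1 was higher than in Epi, and neither call was made with any of the 4 libraries left out. The 2 endothelial, 1 Merkel cell, 3 adipocyte and 2 skeletal muscle genes tested gave no call against Epi in limma, with 1, 0, 1 and 0 at an unadjusted p under 0.05. The part of such cells in the gene groups described here was not tested.

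Signalling genes were ordered by role from ligands to targets. Of 19 Wnt ligand genes 9 were tested, and none was called against Epi (1 had an unadjusted p under 0.05 in limma, and 1 was called without HF-ORS replicate 2), whereas 8 were higher than in ORS and 4 higher than in HF-SC. Wnt4 (chromosome 4, 137277635 to 137299501) was read at 114 and 118 FPKM in HF-ORS, 177 and 119 FPKM in Epi, 10.4 and 6.66 FPKM in ORS and 46 and 40.5 FPKM in HF-SC. The HF-ORS minus ORS difference of Wnt4 was 3.65 ± 0.38 (adjusted p = 7.72e-07), and that of Wnt3 was 4.84 ± 0.39 (adjusted p = 3.30e-08). Wnt3 stood at 37.7 and 38.5 FPKM in HF-ORS, 22.1 and 23.9 FPKM in Epi and 0.251 and 0.499 FPKM in ORS. The count of 8 against ORS was the same whichever library was left out, and the 4 against HF-SC came to 2 without HF-ORS replicate 1 or HF-SC replicate 1. Of 13 Wnt targets and modulators tested, the antagonists Nkd2 and Sfrp2 were called higher than in Epi and none lower, a count of 2 that came to 1 without HF-ORS replicate 1, Epi replicate 1 or Epi replicate 2.

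Hedgehog receptors and targets, which report the Sonic hedgehog signal of the growing follicle, gave no call against Epi. None of the 12 tested was called against Epi by limma, with 2 at an unadjusted p under 0.05 and 1 called higher without HF-ORS replicate 2, and 2 were higher and 5 lower than in ORS. Ptch1, the receptor and a target of the pathway, stood at 48.8 and 32.4 FPKM in HF-ORS, 60.4 and 29.2 FPKM in Epi, 214 and 144 FPKM in ORS and 65.9 and 73.7 FPKM in HF-SC. Gli1, the target used as a readout of signalling, stood at 3.81 and 2.71 FPKM in HF-ORS, 7.46 and 1.31 FPKM in Epi and 37.4 and 26.1 FPKM in ORS (-2.93 ± 0.48 against ORS, adjusted p = 0.000198). Without ORS replicate 1 the 5 lower calls came to 3, and the 2 higher calls came to 1 whichever library was left out. Of 25 basement membrane and matrix genes tested (31 listed), Col4a1, Lama4 and Nid1 were higher than in Epi and none lower, a count that came to 1 without HF-ORS replicate 1, HF-ORS replicate 2 or Epi replicate 2. All genes tested gave 3.88% higher and 1.83% lower calls.

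BMP and TGF-beta genes gave 7 higher calls against Epi of 24 tested (32 listed) and no lower one, with a median of 0.88. The shares over all genes tested were 3.88% higher and 1.83% lower. The 7 called were the ligands Bmp2, Bmp3 and Inhba, the modulator Fstl1 and the target genes Id1, Id2 and Id3. Bmp2, Fstl1 and Id2 were also counted in the matrix or sheath list above. Bmp3 was read at 39.4 and 30.5 FPKM in HF-ORS, 11.7 and 9.21 FPKM in Epi, 1.08 and 0.0384 FPKM in ORS and 2.79 and 7.01 FPKM in HF-SC, and was higher than in each (1.65 ± 0.36, 4.60 ± 0.36 and 2.70 ± 0.36 log2 units). Id3 stood at 289 and 183 FPKM in HF-ORS, 12.9 and 12.2 FPKM in Epi, 69.4 and 56 FPKM in ORS and 154 and 132 FPKM in HF-SC (4.09 ± 0.51 against Epi, adjusted p = 2.12e-05). The count of 7 came to 3 without HF-ORS replicate 1, and to 4 without Epi replicate 1 or Epi replicate 2. None of 11 Notch genes tested was called against Epi by limma, with 1 at an unadjusted p under 0.05. Of 12 imprinted growth genes tested, Grb10, an adaptor that restrains insulin and IGF receptors, rose from 0.18 and 1.46 FPKM in Epi to 17 and 12.5 FPKM in HF-ORS (3.20 ± 0.36, adjusted p = 6.15e-06). Peg10, a gene derived from a retrotransposon, was the other imprinted gene called, at 2.37 and 2.85 FPKM in HF-ORS and 0.146 and 0.14 FPKM in Epi. The gap junction gene Gjb2 stood at 35 and 22 FPKM in HF-ORS, 6.47 and 2.48 FPKM in Epi and 315 and 515 FPKM in ORS. Gjb2 was higher than in Epi by 2.50 ± 0.45 and its difference from ORS was -3.81 ± 0.45, and the call against Epi was lost at adjusted p of 0.0506 without Epi replicate 2 (over all alternatives 0.000997 to 0.0506).

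Immediate early and heat shock genes, which respond quickly to stimuli, tissue dissociation among them, gave the highest share of calls of all lists with at least 10 tested members. All 18 were tested, 15 were higher than in Epi and none lower in limma, with a median of 3.72. The shares over all genes tested were 3.88% and 1.83%. In all 18 both HF-ORS libraries lay above both Epi libraries, and over all 11653 genes the groups did not overlap, in either direction, for 5403. Leaving out 1 library gave 13 to 14 higher calls. Atf3 (chromosome 1, 191170296 to 191183333), a stress-induced transcription factor, was read at 423 and 331 FPKM in HF-ORS, 0.493 and 8.3 FPKM in Epi, 101 and 57.1 FPKM in ORS and 380.4 and 285 FPKM in HF-SC (6.65 ± 0.63 against Epi, adjusted p = 4.69e-07). The heat shock protein gene Hspa1a (chromosome 17, 34969359 to 34972156) stood at 778 and 469 FPKM in HF-ORS, 5.67 and 5.13 FPKM in Epi, 89.5 and 47.8 FPKM in ORS and 928 and 799 FPKM in HF-SC, and reads may be divided between it and its near-identical copy Hspa1b. The AP-1 gene Fos stood at 411 and 288 FPKM in HF-ORS, 19.5 and 47 FPKM in Epi, 132 and 84.5 FPKM in ORS and 474 and 376 FPKM in HF-SC. The HF-ORS and HF-SC libraries overlapped for Fos and lay above all Epi and ORS libraries. Against ORS, 10 of the 18 were higher and none lower, which came to 5 without HF-ORS replicate 1 and 4 without ORS replicate 2. Against HF-SC none was higher and 1 was lower, and that 1 was not called with any HF-ORS or HF-SC library left out. The levels in HF-ORS were thus nearer to those of HF-SC, the sort of the same line, and line, preparation and population cannot be told apart here.

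Interferon response and antigen presentation genes gave 8 higher calls and no lower one against Epi of 22 tested (27 listed), with a median of 1.32. They were 11 and 0 against ORS, and 1 and 1 against HF-SC, and the 11 came to 7 without either ORS library. Their summed level was 2447 and 2945 FPKM in HF-ORS, 724 and 783 FPKM in Epi, 234 and 287 FPKM in ORS and 1681 and 1760.3 FPKM in HF-SC. Of the 22 genes tested, 8 were under 1 FPKM in both Epi libraries, so the higher calls and the median against Epi are descriptions. Over all genes tested 3.88% were called higher than in Epi. H2-K1, a class I antigen-presenting molecule whose reads can be shared with related class I genes, stood at 147 and 90 FPKM in HF-ORS, 4.84 and 5.05 FPKM in Epi, 4.62 and 5.44 FPKM in ORS and 159.8 and 161 FPKM in HF-SC. It rose by 4.29 ± 0.38 against Epi (adjusted p = 2.61e-07) under every alternative. Irf1, a transcription factor of the interferon response, rose by 4.92 ± 0.61 from 0.586 and 1.2 FPKM in Epi to 69.7 and 44 FPKM. Ifit1, an RNA-binding antiviral effector, stood at 2.43 and 3.34 FPKM in HF-ORS, 0 and 0.0622 FPKM in Epi and 0 in both ORS libraries (1.90 ± 0.34 against Epi, adjusted p = 0.00136). The count of 8 came to 4 without Epi replicate 1.

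Of 16 chemokine and receptor genes tested (43 listed), 8 were higher than in Epi (Ccl2, Ccl7, Ccl20, Cxcl1, Cxcl2, Cxcl9, Cxcl10 and Cxcl16) and none was lower, with a median of 1.98 and 6 to 7 higher calls when a library was left out. Cxcl1, which attracts neutrophils, was read at 38.7 and 52.8 FPKM in HF-ORS, 0 and 0.821 FPKM in Epi, 2.75 and 3.48 FPKM in ORS and 18.2 and 19 FPKM in HF-SC (5.10 ± 0.60 against Epi, adjusted p = 1.04e-05). Cxcl10, the interferon-inducible ligand that attracts T cells, stood at 103 and 149 FPKM in HF-ORS, 6.11 and 4.42 FPKM in Epi and 131 and 210.2 FPKM in HF-SC (4.33 ± 0.59 against Epi, adjusted p = 7.22e-05). Ccl20, which attracts Langerhans cell precursors, stood at 35.1 and 45.3 FPKM in HF-ORS, 2.73 and 6.19 FPKM in Epi, 0.127 and 0 FPKM in ORS and 24.3 and 11.7 FPKM in HF-SC. Ccl20 rose by 2.98 ± 0.33 over Epi, and was also higher than in HF-SC by 1.18 ± 0.33 (adjusted p = 0.045), while no list member was called higher than in HF-SC without HF-ORS replicate 1, HF-ORS replicate 2 or HF-SC replicate 2. In all 3 of these genes both HF-ORS libraries lay above all Epi and ORS libraries. The skin-homing chemokine Ccl27a went the other way in value, at 251 and 466 FPKM in HF-ORS and 572 and 911 FPKM in Epi, and was not called (adjusted p = 0.326). Of the 16 genes tested, 6 were under 1 FPKM in both Epi libraries, so the higher calls and the median of this list are descriptions. Over all genes tested 3.88% were called higher.

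**Figure D5:**
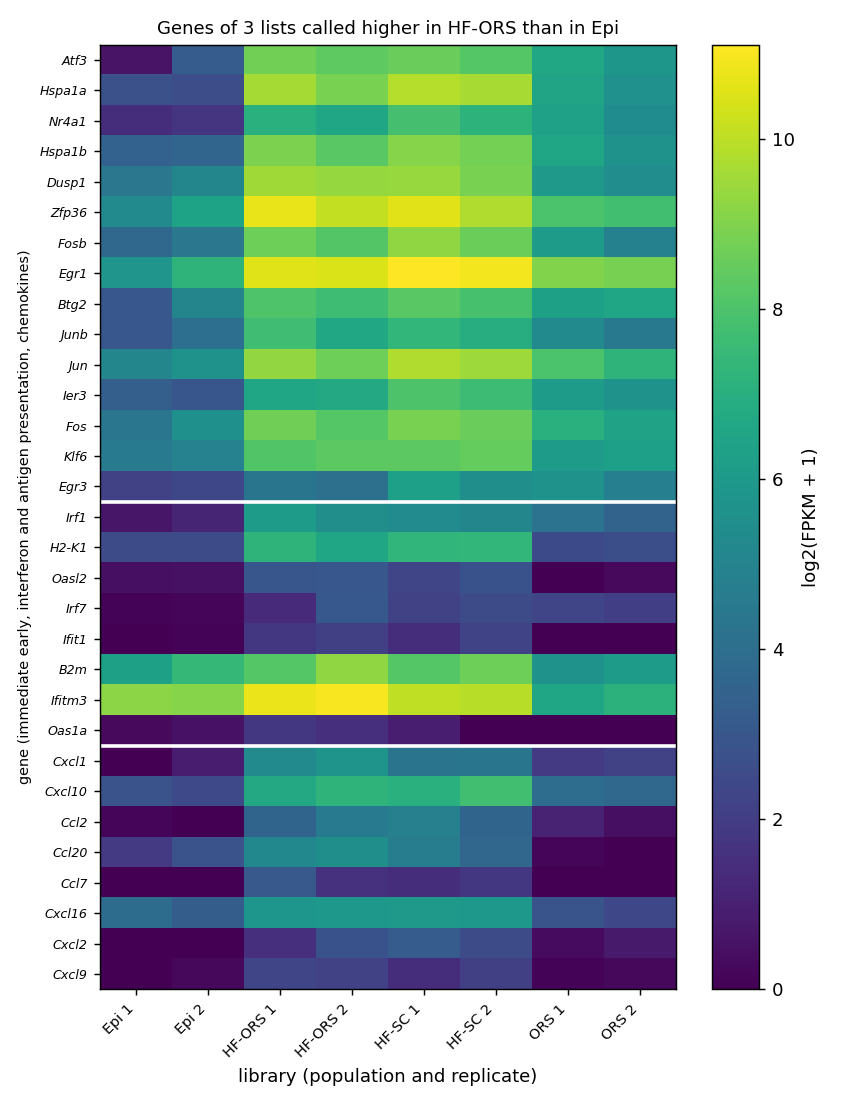
Level on the log2(FPKM + 1) scale (colour) of the immediate early, interferon and chemokine genes called higher in HF-ORS than in Epi (rows) in each library of 4 populations (columns). HF-ORS and HF-SC columns are similar for most rows, and the Epi columns are darker than the HF-ORS columns in every row.

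The promoters of 5 of these genes show the elements that interferon and NF-kB factors are known to read. Each sequence below is the RefSeq window of GRCm38.p6 from 250 bases before to 50 bases after the annotated start, 5′ to 3′ on the strand of the gene. Capitals mark matches to an NF-kB site or to the interferon element (GAAA, any 2 bases, GAAA), on either strand, and overlapping matches run together.
Cxcl1 (chr5:90890995-90891294, plus strand): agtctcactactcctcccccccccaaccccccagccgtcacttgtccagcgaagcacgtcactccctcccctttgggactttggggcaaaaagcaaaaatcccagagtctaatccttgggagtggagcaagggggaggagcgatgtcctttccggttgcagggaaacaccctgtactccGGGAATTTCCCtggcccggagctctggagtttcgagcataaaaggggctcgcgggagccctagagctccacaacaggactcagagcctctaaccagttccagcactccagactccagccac
Cxcl2 (chr5:90903649-90903948, plus strand): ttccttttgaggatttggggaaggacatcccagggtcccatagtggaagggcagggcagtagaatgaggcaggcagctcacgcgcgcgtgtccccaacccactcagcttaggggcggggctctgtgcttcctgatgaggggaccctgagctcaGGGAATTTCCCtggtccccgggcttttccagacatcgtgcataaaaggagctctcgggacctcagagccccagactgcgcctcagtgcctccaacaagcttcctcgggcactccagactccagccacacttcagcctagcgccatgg
Cxcl10 (chr5:92348840-92349139, minus strand): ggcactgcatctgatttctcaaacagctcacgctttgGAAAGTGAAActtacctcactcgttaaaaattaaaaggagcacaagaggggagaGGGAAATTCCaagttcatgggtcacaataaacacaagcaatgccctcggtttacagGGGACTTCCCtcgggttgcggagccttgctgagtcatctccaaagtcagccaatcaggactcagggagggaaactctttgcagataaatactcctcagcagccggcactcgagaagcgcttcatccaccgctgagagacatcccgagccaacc
H2-K1 (chr17:34000298-34000597, minus strand, 1 of its 2 windows): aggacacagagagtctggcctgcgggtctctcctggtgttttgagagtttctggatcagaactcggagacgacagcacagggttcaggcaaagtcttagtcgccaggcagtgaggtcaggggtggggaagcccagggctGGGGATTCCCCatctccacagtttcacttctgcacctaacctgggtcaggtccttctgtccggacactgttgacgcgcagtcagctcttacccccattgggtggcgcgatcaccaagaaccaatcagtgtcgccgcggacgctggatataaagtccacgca
Ifit1 (chr19:34640639-34640938, plus strand): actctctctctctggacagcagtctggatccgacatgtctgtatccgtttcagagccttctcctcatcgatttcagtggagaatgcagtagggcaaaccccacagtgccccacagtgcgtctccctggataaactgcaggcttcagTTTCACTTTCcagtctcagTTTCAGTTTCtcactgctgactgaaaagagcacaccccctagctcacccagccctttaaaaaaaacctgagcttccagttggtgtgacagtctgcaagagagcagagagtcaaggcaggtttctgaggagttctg
Cxcl1 and Cxcl2 hold the same NF-kB letters at positions -71 and -97 from the start, Cxcl10 holds both kinds of element, and Ifit1 holds a pair of interferon elements.

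Of the 8 chemokine genes called higher 5 had a window, and 4 of the 5 held an NF-kB match, against 4.51% of all 32851 windows. Of the 8 interferon and antigen presentation genes called higher, which all had a window, 4 held the interferon element against 3.44% of all windows, and 3 held an NF-kB match. For the 15 immediate early genes called higher, 13 had a window, and none held the AP-1 element TGANTCA (7.81% of all windows), 2 held the CRE element TGACGTCA (1.79%) and 4 held an NF-kB match. Cxcl9, Irf7 and Oasl2, called higher but not printed above, held neither an NF-kB match nor the interferon element. Called members were not compared with uncalled members of the same lists, which were written from textbook knowledge. These shares therefore say nothing particular to HF-ORS. A match is a run of letters in this window and was not tested as a binding site.

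Within the K14-RFP Sox9-GFP line, follicle genes were called in 1 direction in the main fit. HF-ORS was gated as Sox9-GFP negative, so a Sox9 call in these counts, against HF-SC or ORS, only checks the gate. Over all genes tested 2.34% were higher and 2.33% lower in HF-ORS than in HF-SC. With only the HF-ORS and HF-SC libraries in the fit, 1 follicle gene was higher and 8 were lower. Of the 72 follicle genes tested none was higher and 20 were lower in HF-ORS than in HF-SC, and the 20 came to 8 without HF-ORS replicate 1 and 10 without HF-SC replicate 2. Of 56 epidermal genes 6 were higher and 3 lower, and these came to 1 and 1 without HF-ORS replicate 1, while the 6 came to 3 without HF-SC replicate 2. Against ORS the 72 follicle genes gave 10 higher and 32 lower calls. Ptgs1, the cyclooxygenase COX-1, was read at 66.8 and 48.7 FPKM in HF-ORS, 99.4 and 79.5 FPKM in Epi, 0.619 and 0.084 FPKM in ORS and 14.4 and 12.9 FPKM in HF-SC. None of 24 cell cycle genes was called against Epi by limma, with 1 at an unadjusted p under 0.05.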

How the data were processed

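RNA of sorted cells was measured by sequencing. Per the labels' protocols, RNA with an integrity number of at least 8.8 was used, 6 ng was amplified to cDNA, and 100.0 ng of cDNA went into each library. The authors deposited 1 table of FPKM values. Reads were handled with Bowtie2, TopHat2 2.0.3 and Cufflinks 2.1.1 against mm10, per the submitters' processing notes. For the annotation, strand use and scaling between libraries, the steps were not stated there. Columns were matched to samples by name.

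Of 23235 rows, 220 identical ones were dropped, 64 of the rest shared a symbol and 170 joined several genes. The values were used as deposited, as log2(FPKM + 1). Limma 3.58.1 in R 4.3.3 was fitted to all 28 libraries with 1 mean per population, and empirical Bayes with a trend, and was tested on simulated data. Differences on this scale understate those of low genes. Alternatives were other pseudocounts, filters, scalings, sets of libraries, the replicate number as a block and leaving out each library.

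The members and the 36 gene lists, written from textbook knowledge, were chosen with earlier results of these data known. Named genes were the gate genes, among called genes that averaged 5 FPKM or more the 10 most increased and 10 most decreased, the most changed members of each list and leukocyte genes of at least 5 FPKM. Some of them, among them Arhgdib, Ptpn6, Epcam, Thy1 and Il2rg of the leukocyte lists, are not described here. Igf2, Lhx2, Lgr5, Krt15, Krtdap, Ptch1, Gli1, Wnt3, Ptgs1, Fos, Vim, Xist, Ddx3y and the defining genes of leukocytes at or near 0 were named in addition. Promoters and positions are those of RefSeq, GRCm38.p6. P-values are two-sided and adjusted over the 11653 genes tested. The result of 1 gene list is not reported here.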

Additional observations from a re-analysis of the deposited data

Results flagged for a closer look

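The HF-ORS minus ORS comparison equals the gap between the differences of both sheath sorts from Epi, and it was past the threshold in limma for 1800 genes. Among them were 5 gate and marker genes, given here on the log2 scale. Krt1 differed by 8.37, Krt10 by 7.28, H19 by 5.14 and Krt14 by 2.87 towards HF-ORS, and Sox9 by -1.63, towards ORS. HF-ORS was gated as Sox9-GFP negative, so its lower Sox9 reflects the gate and is no finding. The Sox9 call was lost at adjusted p of 0.0638 without HF-ORS replicate 1 and 0.0993 without ORS replicate 2 (over all alternatives 0.000331 to 0.0993). Both HF-ORS libraries of each of these genes lay on the same side of both ORS libraries. The sorts also differed in mouse line and reporter.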

How the results depend on the processing

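Against Epi, the 452 higher and 213 lower calls came to 286 and 134 with a pseudocount of 5 FPKM, 287 and 137 with a minimum of 5 FPKM, and 207 and 41 with only the 4 libraries compared in the fit. The lower count came to 94 with only the 8 keratinocyte libraries. With 1 library left out the higher count ranged from 249 to 386 and the lower count from 66 to 310. Against ORS the 1800 calls ranged from 1044 to 1684 with 1 library left out. Against HF-SC the 544 calls came to 300.0 with a minimum of 5 FPKM, 75 with only the 4 libraries compared and 308 with only the 8 keratinocyte libraries, and ranged from 233 to 601 with 1 library left out. The cause was not tested.

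Same-numbered HF-ORS and Epi libraries deviated together at a correlation of 0.117, HF-ORS and ORS at 0.071, HF-ORS and HF-SC at 0.088 and Epi and ORS at 0.222. The labels tie no number to a shared animal, litter or day, and with 2 numbers the correlations cannot show pairs. Same-numbered HF-ORS and HF-SC libraries were alike in Xist and Ddx3y, and whether they shared animals was not tested. The main fit did not read the numbers as pairs. With the replicate block within each mouse line, 647 genes were called higher and 400.0 lower than in Epi, and 976 were called against HF-SC. Under the same block the sheath and bulge genes lower than in HF-SC came to 18, from 9. With the replicate block over all lines, 583 were higher and 321 lower than in Epi.

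Of 70 named genes called against Epi, 27 kept the call under every alternative in which they were tested and 36 lost it with some library left out. Differences that changed sign were all of genes not called. With 1 library left out, H19 ranged from -0.38 to 0.23 against Epi and Lef1 from -0.12 to 0.75 against HF-SC. Against Epi, Egfl7 ranged from -1.07 to 0.54, Pnpla2 from -0.29 to 1.18 and Gas1 from -0.51 to 0.35. Mylpf ranged from -0.20 to 0.055, Tnnc2 from -0.37 to 1.48 and Notch1 from -0.10 to 0.38. FPKM values hold no depth, so how far counting error limits the genes under a few FPKM cannot be given.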

Other observations

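The gene families in this section were chosen after their values had been seen, and their counts are descriptions. Over all genes tested 3.88% were called higher and 1.83% lower in HF-ORS than in Epi. Of 7 EGF family ligand genes tested, which act on the EGF receptor of keratinocytes and related receptors, 5 were higher in HF-ORS than in Epi and none was lower. Epgn, the ligand epigen, was read at 126 and 221 FPKM in HF-ORS, 4.93 and 11.7 FPKM in Epi, 2.55 and 1.94 FPKM in ORS and 104 and 149 FPKM in HF-SC (4.27 ± 0.45 log2 units against Epi, adjusted p = 2.12e-06 in limma). Hbegf stood at 42.5 and 45.4 FPKM in HF-ORS and 2 and 3.91 FPKM in Epi, and Areg at 17.1 and 11.7 FPKM in HF-ORS and 0 in both Epi libraries. Ereg and Nrg1 were the other ligands called. Both HF-ORS libraries lay above both Epi libraries in all 5, which is likely for any gene called higher and adds no support. Among 18 dual specificity phosphatase genes, which restrain MAP kinases, 7 were higher and none lower, with Dusp6 at 28.3 and 24.6 FPKM in HF-ORS, 0.582 and 2.33 FPKM in Epi and 37.3 and 44.4 FPKM in ORS. Of 9 feedback and target genes of NF-kB, 5 were higher and none lower, with Tnfaip3 at 91.6 and 70.2 FPKM in HF-ORS, 2.97 and 4.39 FPKM in Epi and 71.1 and 87.2 FPKM in HF-SC.

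Of 62 heat shock and DnaJ protein genes tested, 14 were higher and 1 lower than in Epi, with a median of 0.15. The shares over all genes tested were 3.88% and 1.83%. Hsp90aa1, the inducible HSP90 chaperone, stood at 873 and 1294 FPKM in HF-ORS, 87.6 and 122 FPKM in Epi, 308 and 314 FPKM in ORS and 1099 and 1626 FPKM in HF-SC (3.35 ± 0.27 against Epi, adjusted p = 7.63e-08 in limma). Hspa12a was the lower one, at 1.11 and 3.01 FPKM in HF-ORS and 6.62 and 9.21 FPKM in Epi. Of 72 cytosolic ribosomal protein genes 1 was called, Rpl30, which was higher at 3195 and 3731 FPKM in HF-ORS and 1410.2 and 1907 FPKM in Epi. Of 45 genes for subunits of mitochondrial complex I, 4 were lower and none higher, with a median of -0.62. Ndufs3 stood at 25.6 and 27.9 FPKM in HF-ORS, 72.8 and 92.4 FPKM in Epi, 67.5 and 59.3 FPKM in ORS and 40.9 and 27.8 FPKM in HF-SC, and both HF-ORS libraries lay below all Epi and ORS libraries. Leaving out single libraries was not run for these families.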
